A study of Mus musculus with 12 samples.

Results

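The genes described here are the Egr factors and neuronal activity genes of the mouse cochlea: Egr1, Egr2, Egr3, Arc, Npas4, Homer1, Nab1 and Nab2. They were found by matching the Ensembl gene IDs of a read count table to these symbols, which gave 8 of 35496 genes, 1 row for each symbol. All 8 passed the filter on low counts, as did 19497 genes in all. The libraries were made from cochleae of FVB/NCrl mice, an inbred wild-type strain, at postnatal day 60. Awake mice spent 30 minutes at 70 dB SPL (ambient sound, the control), 94 dB SPL (loud noise) or 105 dB SPL (very loud noise), and RNA was harvested straight afterwards. Each sound level had 4 libraries, 12 in all, and depth overlapped between groups (31141706 to 42317781 reads in genes at 70 dB, 32302796 to 38733490 in the 94 dB group, 32057388 to 40239711 in the 105 dB group). The labels name no transgene or drug, and they give sound level as the one difference between the 3 groups. Whether each library stands for a single animal or for pooled animals is not stated, so the p-values reflect spread among libraries that may be technical.

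Egr1, Egr2 and Egr3 are zinc-finger transcription factors whose genes are switched on within minutes of growth factor signals, calcium entry or depolarisation, before any new protein has to be made. Nab1 and Nab2 bind Egr1, Egr2 and Egr3 and hold back much of their transcriptional activity by bringing in the NuRD chromatin remodelling complex; Nab2 is itself a target of Egr factors, which closes a feedback loop. Arc, Npas4 and Homer1 are best known in neurons: Npas4 is a transcription factor tied closely to calcium entry, Arc is a cytoplasmic protein that removes AMPA-type glutamate receptors from the synapse, and Homer1 is a postsynaptic scaffold. In the peripheral nerve, Egr2 is also the master factor of myelination in Schwann cells.

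Upstream sequences are shown because 3 kinds of short DNA motif are textbook entry points for the signals that act on these genes: the CArG box bound by serum response factor, the cyclic AMP response element TGACGTCA and its shorter core TGACG bound by CREB-type factors, and the site GCGNGGGCG bound by Egr factors themselves. RefSeq start sites on GRCm38.p6 were matched for 5 of the 8 genes, with 10 windows of 300 bases (250 before to 50 after the start). Egr1, Egr3 and Arc had no entry. Where a gene had several windows, the one with the most motif matches is shown, the first of any ties. The 250 bases before the start are printed 5′ to 3′ on the gene's own strand, with motif matches on either strand in capitals (a TGACG on the opposite strand reads CGTCA, and an Egr site on the opposite strand reads CGCCCACGC). The windows are chr10:67537619-67537868 plus strand for Egr2, chr19:4989972-4990221 minus strand for Npas4, chr13:93303507-93303756 plus strand for Homer1 and chr1:52500449-52500698 minus strand for Nab1.
Egr2: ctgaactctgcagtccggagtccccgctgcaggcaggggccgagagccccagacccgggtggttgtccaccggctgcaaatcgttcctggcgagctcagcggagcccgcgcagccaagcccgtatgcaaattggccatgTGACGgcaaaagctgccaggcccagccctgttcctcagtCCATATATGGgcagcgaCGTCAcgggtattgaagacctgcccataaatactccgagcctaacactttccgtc
Npas4: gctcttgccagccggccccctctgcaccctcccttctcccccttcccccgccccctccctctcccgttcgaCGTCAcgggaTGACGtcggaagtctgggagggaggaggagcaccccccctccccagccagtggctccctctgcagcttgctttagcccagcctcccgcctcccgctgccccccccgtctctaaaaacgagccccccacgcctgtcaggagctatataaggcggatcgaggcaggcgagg
Homer1: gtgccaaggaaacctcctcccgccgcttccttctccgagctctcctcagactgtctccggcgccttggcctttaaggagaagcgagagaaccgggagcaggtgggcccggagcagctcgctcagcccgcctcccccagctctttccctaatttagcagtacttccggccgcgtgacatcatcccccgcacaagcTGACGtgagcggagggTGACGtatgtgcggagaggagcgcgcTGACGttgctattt
Nab1: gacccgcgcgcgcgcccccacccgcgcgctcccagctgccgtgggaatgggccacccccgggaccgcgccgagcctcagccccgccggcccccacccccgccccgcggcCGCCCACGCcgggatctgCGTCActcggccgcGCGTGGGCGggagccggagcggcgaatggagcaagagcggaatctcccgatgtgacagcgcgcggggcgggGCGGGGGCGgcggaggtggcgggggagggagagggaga

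Counted from the start site, the Egr2 sequence held a CArG box at -72 and TGACG at -111 and -55, the last on the opposite strand. Npas4 held TGACG at -179 on the opposite strand and at -169. Homer1 held 3 copies of TGACG, at -56, -40 and -14. Nab1 held 3 Egr sites, at -141 on the opposite strand and at -109 and -38, together with 1 TGACG at -123 on the opposite strand. The Nab2 window (chr10:127666654-127666953, minus strand) lay inside the annotated gene and held none of the 4 motifs. The printed Egr2, Npas4 and Homer1 windows also lay inside their annotated genes. The bases before the outermost annotated starts of Nab2 (127668568), Npas4 (4990316) and Homer1 (93299635) were not searched. None of the 10 windows held the full TGACGTCA. Among 32851 promoter windows of the same length, 1.63% held a CArG box, 1.79% the full TGACGTCA, 20.8% TGACG and 5.55% an Egr site, with TGACG also counted inside the full element. Those shares are over all windows, whereas the Egr2 and Homer1 windows described were picked for their matches. An Egr2 window starting at 67535249 and a Homer1 window starting at 93307784 held none of the 4 motifs. A match is a description of letters, not of binding.

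The 8 genes lie on 7 chromosomes of the GRCm38 (mm10) build. Egr1 (ENSMUSG00000038418) is on chromosome 18 at 34859823 to 34864984, plus strand. Egr2 (ENSMUSG00000037868) is on chromosome 10 at 67535475 to 67542188, plus strand, and Egr3 (ENSMUSG00000033730) on chromosome 14 at 70077203 to 70082614, plus strand. Arc (ENSMUSG00000022602) is on chromosome 15 at 74669083 to 74672570, minus strand, and Npas4 (ENSMUSG00000045903) on chromosome 19 at 4984355 to 4990316, minus strand. These 5 are short genes, while Homer1 (ENSMUSG00000007617) runs from 93299635 to 93405129 on the plus strand of chromosome 13. Nab1 (ENSMUSG00000002881) is on chromosome 1 at 52457294 to 52500679, minus strand, and Nab2 (ENSMUSG00000025402) on chromosome 10 at 127660918 to 127668568, minus strand. Among the 8, only the exons of Nab2 overlap those of another annotated gene, all on the opposite strand, and use of strand in counting is not given in the sources used here.

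The cochlear label was checked against marker genes. All 9 hair cell markers, Myo7a and Slc26a5 among them, were detected in every group, with summed CPM (read counts scaled to a common library size) of 107 to 125 in ambient libraries, 105 to 117 after 94 dB and 108 to 114 after 105 dB. The 12 neuronal markers summed to 2864 to 3752, 2891 to 3413 and 2886 to 3171 CPM, and the 6 Schwann cell markers to 1831 to 3042, 1483 to 2033 and 1533 to 2128 CPM, overlapping between groups. Blood and bone marrow markers were present too, none of them at 0 in every library. Skeletal muscle markers summed to 3870 to 6254, 3218 to 6752 and 5074 to 6697 CPM in the same order of groups. Bone cell markers summed to 1737 to 2079, 1890 to 2109 and 1785 to 2100 CPM. Central glia markers summed to 209 to 267, 184 to 253 and 184 to 226 CPM, above the hair cell sums. All of these overlapped between groups, and the erythroid and neutrophil sums given below were larger. Which cell types the reads of the Egr and activity genes came from was not tested. The 94 dB libraries stood apart in makeup: mitochondrially encoded genes took 2.68 to 3.59% of their reads, against 5.08 to 5.68% in ambient libraries and 4.43 to 5.35% in those at 105 dB, with the 2 lowest shares in 94 dB replicates 3 and 4 (2.68 and 2.73%). Several results at 94 dB are therefore also given without those 2 libraries. With 2 libraries left at 94 dB, 1610 genes in all were called there, against 5085 with 4. A call lost in that fit does not by itself show a changed estimate. In whole-tissue RNA, fewer cells of a type and less RNA per cell cannot be told apart.

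At ambient sound the corepressor Nab1 and Egr1 were the most abundant of the 8 genes, and Arc and Npas4 the least. Per length of exon and library size (RPKM, the scale on which genes of different length can be compared), Nab1 was highest at 13.7 on average (12.7 to 15.3 over the 4 libraries), followed by Egr1 at 11.3 (8.56 to 14.0). Egr2 followed at 7.49 (5.94 to 10.3), then Nab2 at 6.97 (5.77 to 8.15) and Egr3 at 5.14 (4.22 to 6.01). Homer1 at 1.45 (1.35 to 1.54), Arc at 1.15 (1.04 to 1.24) and Npas4 at 1.15 (0.888 to 1.36) were the lowest. Neighbours in this order overlapped between libraries except Egr3 over Homer1 and Homer1 over Arc. By mean level at 70 dB in CPM, Nab1 and Egr1 stood at percentiles 78.1 and 75.7 of all genes tested. Homer1 stood at 49.9, and Npas4 and Arc at 31.1 and 28.2. The length used for RPKM joins all annotated exons of a gene, which for Homer1 is 11976 bases over 12 transcripts. Arc and Npas4 were measured from 115 to 280 reads per library and Egr1 from 1223 to 7148. In the noise groups Egr1 became the most abundant of the 8, at 27.1 RPKM after 94 dB and 38.2 after 105 dB.

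**Figure D1:**
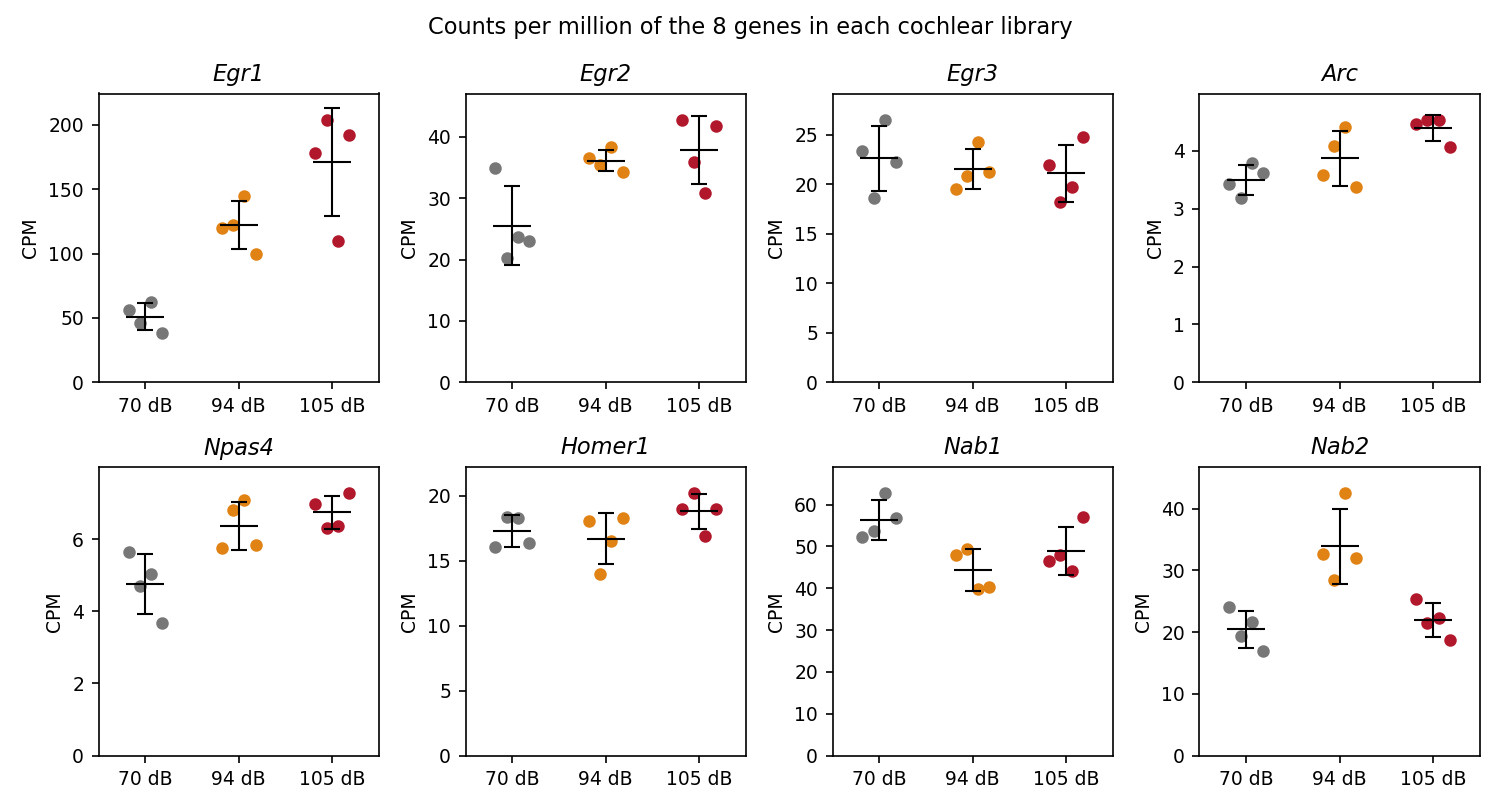
CPM (vertical axes, from 0, scaled per gene) of the 8 genes in each of the 12 libraries, by sound level, with points for libraries and bars for group means. Egr1 rises from 38.4 to 62.7 at 70 dB to 99.9 to 204 in the noise libraries, Nab2 is highest at 94 dB, and Egr3 and Homer1 overlap across all sound levels.

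Against ambient sound, 5 of the 8 genes passed the test at 94 dB (edgeR's quasi-likelihood test, Benjamini-Hochberg adjusted p under 0.05 over all genes tested), 4 higher and 1 lower. This compares with 26.1% of all genes tested, 13.9% higher and 12.2% lower. At 105 dB 1 of the 8 passed, Egr1, which was higher, against 1.62% of all genes in either direction, 1.11% higher and 0.508% lower. The direct comparison of 105 with 94 dB called 1 of the 8, Nab2, which was lower, against 17.3% of all genes, 8.06% higher and 9.23% lower. Groups that did not overlap, library by library, were found for 4 of the 8 at 94 dB, 3 higher and 1 lower, against 25.4% of all genes (13% higher, 12.3% lower). At 105 dB there were 3, all higher, against 10.8% of all genes (5.78% higher, 5.03% lower). Between the noise levels there was 1, lower at 105 dB, against 21.3% of all genes (10.5% higher, 10.8% lower). At an unadjusted p under 0.05 there were 5 of the 8 at 94 dB, 5 at 105 dB and 2 between the noise levels. Over all 19497 genes there were 7465, 3653 and 6150. Egr2 and Npas4 had smaller unadjusted p at 105 dB (0.00172 and 0.00198 by edgeR) than at 94 dB (0.00419 and 0.00748). Their calls thus differ through the adjustment, not through a smaller estimate at 105 dB. The median log2 fold change of the 8 was 0.28 at 94 dB and 0.22 at 105 dB, beside -0.02 and -0.00 for all genes. Both comparisons use the same 70 dB libraries, so they are not independent of each other.

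**Figure D2:**
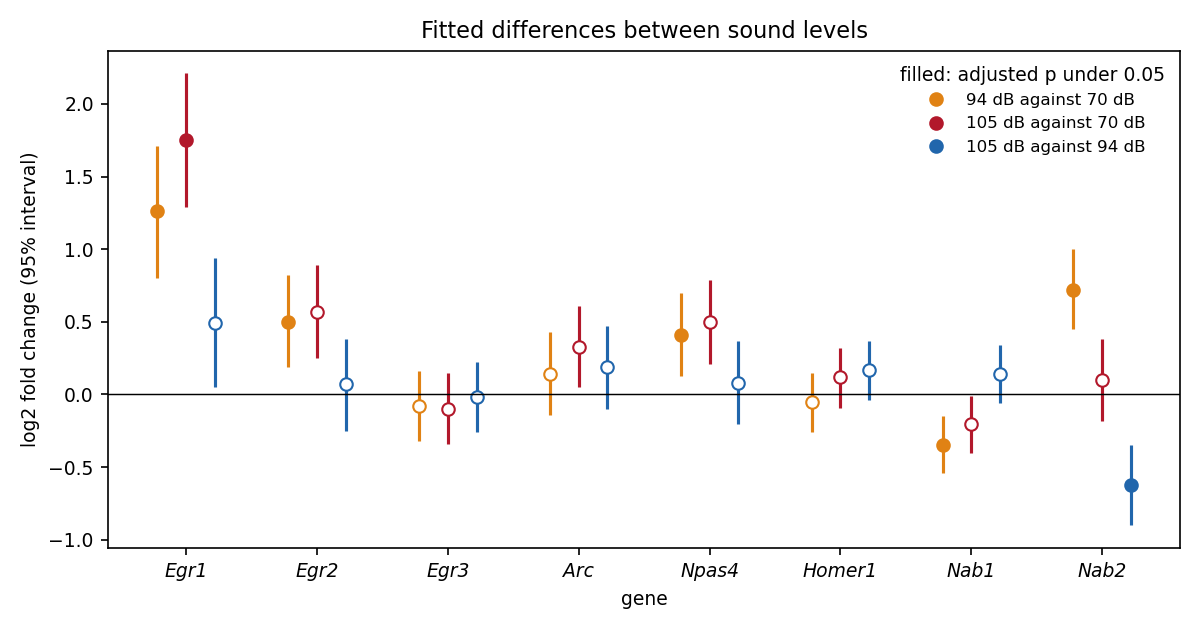
Fitted log2 fold changes (vertical axis) of the 8 genes for the 3 comparisons of sound levels, with 95% intervals as bars and filled symbols where the adjusted p is under 0.05. Egr1 stands at 1.26 and 1.75 against 70 dB. Nab2 stands at 0.72 (94 dB) and 0.10 (105 dB) against 70 dB, and at -0.62 for 105 dB against 94 dB.

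Egr1 made the largest move of the 8 genes at both noise levels. Its 4 libraries at 70 dB held 56.2, 46.3, 62.7 and 38.4 CPM. After 94 dB they held 120, 122, 145 and 99.9 CPM, and after 105 dB 178, 204, 110 and 192 CPM. Every noise library lay above every ambient one, and 3 of the 4 libraries at 105 dB lay above all at 94 dB, with 105 dB replicate 3 below 94 dB replicates 1 to 3. The mean rose from 50.9 ± 10.7 to 122 ± 18.5 and 171 ± 41.9 CPM (SD, n = 4). The rise was 2.39-fold at 94 dB (log2 1.26, SE 0.21, adjusted p = 0.00183 by edgeR) and 3.36-fold at 105 dB (log2 1.75, SE 0.21, adjusted p = 0.00145), the 154th and 37th largest rises among the genes tested. Between the noise levels the difference of 0.49 on the log2 scale (95% interval 0.05 to 0.94) had an adjusted p of 0.122. Without 105 dB replicate 3 it was 0.65 with an adjusted p of 0.0179, in a range of 0.0179 to 0.379 over the 24 other settings. The 7 erythroid markers summed to 18147 to 22272 CPM in ambient libraries, 18844 to 32448 after 94 dB and 22291 to 31436 after 105 dB, higher in every 105 dB library than in any ambient one with none of the 7 called there. The 6 markers of the stria vascularis summed to 959 to 1005, 942 to 1018 and 930 to 955 CPM, lower in every 105 dB library than in any ambient one with none called. The part of either in the values at 105 dB was not tested.

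Egr2, the Schwann cell and immediate early factor, rose at 94 dB. Ambient libraries held 34.9, 20.2, 23.6 and 23.1 CPM, those at 94 dB 36.6, 35.4, 38.3 and 34.3 CPM, and those at 105 dB 42.8, 35.9, 30.8 and 41.7 CPM. One ambient library, 70 dB replicate 1, lay within the range of both noise groups, and the other 3 lay below every noise library. Egr2 was 1.42-fold higher at 94 dB (log2 0.50, SE 0.15, adjusted p = 0.0229 by edgeR). At 105 dB the estimate was 1.48-fold (log2 0.57, 95% interval 0.25 to 0.89) with an adjusted p of 0.0703, and the 2 noise levels differed by 0.07 (adjusted p = 0.802). Without 70 dB replicate 1 the value at 105 dB was 0.77 with an adjusted p of 0.00136, in a range of 0.00136 to 0.189 when single libraries were left out. The call at 94 dB ended without 70 dB replicate 2 (0.0527), 3 (0.0562) or 4 (0.0594), without 94 dB replicate 3 (0.0637), and without 94 dB replicates 3 and 4 together (0.145). It also ended with no low-count filter (0.0735) and with 1 surrogate variable (0.0716). Without 94 dB replicates 3 and 4 the log2 estimate was 0.50, as with all libraries.

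Egr3, a close relative that is also an immediate early gene in neurons and lymphocytes, did not pass the test at either level. It had 23.3, 18.6, 26.5 and 22.2 CPM at 70 dB, 19.5, 20.8, 24.3 and 21.2 CPM at 94 dB, and 21.9, 18.2, 19.7 and 24.8 CPM at 105 dB. The 3 groups overlapped throughout. The log2 difference was -0.08 at 94 dB (95% interval -0.32 to 0.16, adjusted p = 0.664 by edgeR) and -0.10 at 105 dB (-0.34 to 0.15, adjusted p = 0.687), intervals that leave out changes of the size seen for Egr1.

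The proportions of the 3 Egr factors to each other thus differed between sound levels. For each read of Egr3 there were 2.25 ± 0.349 reads of Egr1 at 70 dB (1.73 to 2.49 over the 4 libraries), 5.67 ± 0.650 at 94 dB (4.71 to 6.12) and 8.18 ± 2.32 at 105 dB (5.60 to 11.2), a ratio taken within each library and so free of library scaling. Both noise groups lay wholly above the ambient group. Reads of Egr2 per read of Egr3 were 1.13 ± 0.260 at 70 dB (0.892 to 1.5), 1.69 ± 0.132 at 94 dB (1.58 to 1.87) and 1.79 ± 0.206 at 105 dB (1.56 to 1.98), again without overlap against 70 dB. Egr4, the remaining Egr factor, was too low to be tested: it had 0 to 4 reads per library at 70 dB (8 in all), 7 to 11 at 94 dB (36 in all) and 0 to 5 at 105 dB (10 in all). Each 94 dB library thus held more Egr4 reads than any other library. When all genes were fitted without the low-count filter, Egr4 had a log2 fold change of 2.19 at 94 dB (adjusted p = 0.0580 by edgeR) and 0.38 at 105 dB (adjusted p = 0.901).

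Nab2, the inducible corepressor, was higher at 94 dB and not at 105 dB. Its ambient libraries held 24, 19.4, 21.6 and 17.0 CPM, those at 94 dB 32.6, 28.5, 42.5 and 32.0 CPM, and those at 105 dB 25.4, 21.5, 22.3 and 18.7 CPM. All 4 libraries at 94 dB lay above all 8 others, and 94 dB replicate 3 was the highest. The rise at 94 dB was 1.65-fold (log2 0.72, SE 0.13, adjusted p = 0.00131 by edgeR). At 105 dB the value was 0.10 (95% interval -0.18 to 0.38, adjusted p = 0.719), and the direct comparison of 105 with 94 dB gave -0.62 (SE 0.13, adjusted p = 0.00609). Without 94 dB replicates 3 and 4 the rise against ambient was 0.58 and still called, while the difference between the noise levels was -0.48 with an adjusted p of 0.0873, in a range of 1.22e-04 to 0.0873.

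Several other measures moved with Nab2. The 8 macrophage markers summed to 440 to 515 CPM in ambient libraries, 546 to 655 after 94 dB and 473 to 527 after 105 dB, with 4 of the 8 called higher and 1 lower at 94 dB, and the 4 B cell markers summed to 92.5 to 132, 151 to 162 and 114 to 146 CPM with 1 called higher. The 8 neutrophil markers summed to 7518 to 9354, 7749 to 15275 and 8304 to 9875 CPM, which overlapped, with 4 called higher and none lower at 94 dB and 1 higher at 105 dB. The mitochondrial share of reads had the reverse pattern. Their part in the Nab2 result was not tested. When each library's smooth dependence on GC and on length entered the fit as an offset, Nab2 was 0.46 at 94 dB in place of 0.72 (adjusted p = 0.00793) and -0.38 between the noise levels (adjusted p = 0.0327). Of the genes whose exons overlap Nab2 on the other strand, Nemp1 shares 151 bases and had 15.3 ± 0.307, 15 ± 1.32 and 15.9 ± 1.57 CPM at 70, 94 and 105 dB. Stat6 shares 40 bases and had 124 ± 8.04, 112 ± 4.99 and 110 ± 5.56 CPM, and the predicted gene Gm16229 shares 1050 bases and had at most 1 read per library. Nemp1 and Stat6 did not pass the test in any comparison, and Gm16229 was too low to be tested.

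Nab1, the more abundant and constitutive corepressor, went the other way at 94 dB. Ambient libraries held 52.2, 53.6, 62.7 and 56.9 CPM, those at 94 dB 47.9, 49.4, 39.9 and 40.2 CPM, and those at 105 dB 46.5, 47.9, 44.1 and 57.0 CPM. The 94 dB libraries lay wholly below the ambient ones, with the lowest values in 94 dB replicates 3 and 4, while 105 dB replicate 4 lay among the ambient libraries. Nab1 fell by 0.35 on the log2 scale at 94 dB (SE 0.09, adjusted p = 0.0128 by edgeR), and the value at 105 dB was -0.20 (adjusted p = 0.251). The call at 94 dB ended without 70 dB replicate 3 (0.0510) and without 94 dB replicates 3 and 4 together (-0.21, adjusted p = 0.213). The 6 supporting cell markers were also lower at 94 dB than at 70 dB, with sums of 1536 to 1653 CPM in ambient libraries, 1175 to 1375 after 94 dB and 1477 to 1603 after 105 dB and 3 of the 6 called lower at 94 dB. At 105 dB their sums lay above all those at 94 dB, where Nab1 overlapped, and their part in the Nab1 result was not tested.

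Within each library the balance of the corepressors and of Egr1 with Nab2 shifted with sound level. Reads of Nab2 per read of Nab1 were 0.366 ± 0.0677 at 70 dB (0.298 to 0.459), 0.780 ± 0.211 at 94 dB (0.577 to 1.07) and 0.457 ± 0.0948 at 105 dB (0.328 to 0.546). The 94 dB libraries lay above all others. Reads of Egr1 per read of Nab2 were 2.47 ± 0.289 at 70 dB (2.26 to 2.90), 3.62 ± 0.492 at 94 dB (3.12 to 4.28) and 7.93 ± 2.43 at 105 dB (4.95 to 10.3), so the 3 sound levels did not overlap. These ratios are read counts and describe RNA, not protein, and they carry no test.

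**Figure D3:**
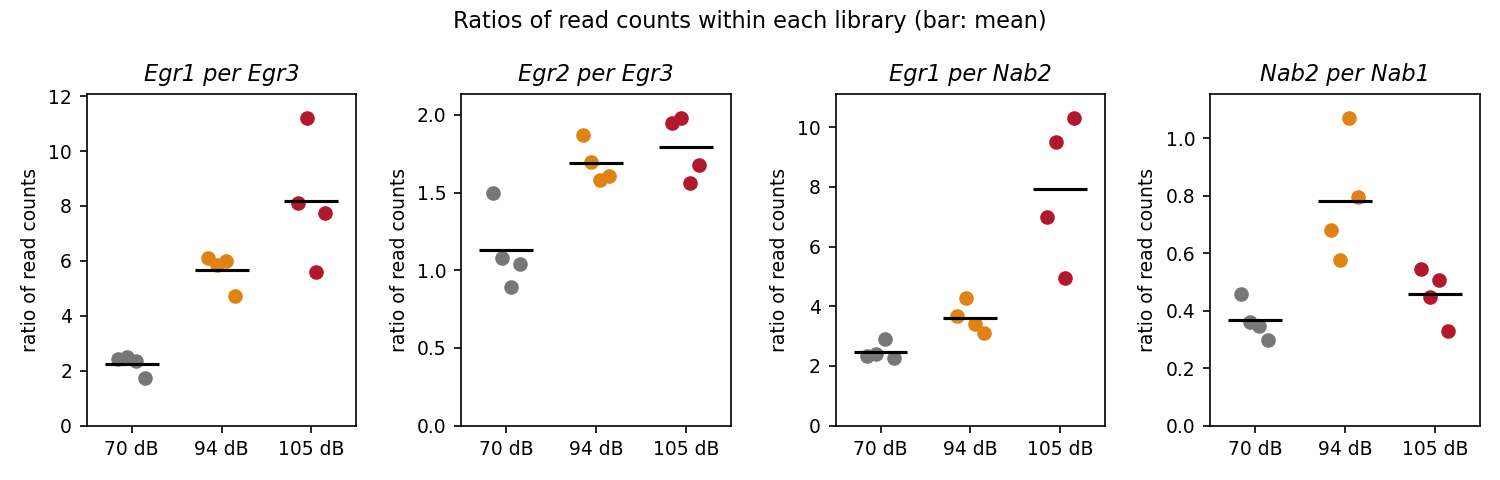
Ratios of read counts (vertical axes, from 0) within each of the 12 libraries, by sound level, for 4 pairs of genes, with points for libraries and bars for means. Egr1 per Nab2 separates all 3 sound levels (2.26 to 2.90, 3.12 to 4.28 and 4.95 to 10.3), while Nab2 per Nab1 is highest at 94 dB (0.577 to 1.07).

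Npas4, the calcium-dependent transcription factor, rose at 94 dB. Its libraries held 5.64, 4.69, 5.03 and 3.67 CPM at 70 dB, 5.74, 6.80, 7.07 and 5.84 CPM at 94 dB, and 6.98, 6.32, 6.37 and 7.27 CPM at 105 dB. Every noise library was above every ambient one, although 94 dB replicate 1 (5.74) and 70 dB replicate 1 (5.64) nearly touched. The rise was 1.33-fold at 94 dB (log2 0.41, SE 0.14, adjusted p = 0.0340 by edgeR), and the estimate at 105 dB was 1.41-fold (log2 0.50, 95% interval 0.21 to 0.79) with an adjusted p of 0.0765. At 94 dB the call ended without 70 dB replicate 2 (0.0655) or 4 (0.0894), without 94 dB replicate 2 (0.0722) or 3 (0.102) or both 3 and 4 (0.163), and after the GC and length correction (0.119, or 0.135 with the replicate block). It also ended with no low-count filter (0.0504), with the 8 libraries of the comparison alone (0.0586) and with 1 surrogate variable (0.140). Without 94 dB replicates 3 and 4 the log2 estimate was 0.40, beside 0.41 with all libraries.

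Arc had 3.42, 3.18, 3.8 and 3.61 CPM at 70 dB, 3.59, 4.09, 4.42 and 3.38 CPM at 94 dB, and 4.46, 4.54, 4.54 and 4.07 CPM at 105 dB. The 94 dB libraries overlapped the ambient ones, and the 105 dB libraries all lay above them. The log2 difference was 0.14 at 94 dB (95% interval -0.14 to 0.43, adjusted p = 0.464 by edgeR) and 0.33 at 105 dB (0.05 to 0.61, adjusted p = 0.201), so neither passed. At 115 to 179 reads per library, a change the size of the Egr1 rise would lie outside both intervals.

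Homer1 had 16.1, 18.4, 18.3 and 16.4 CPM at 70 dB, 18.1, 14.0, 16.5 and 18.3 CPM at 94 dB, and 19.0, 20.2, 16.9 and 19.0 CPM at 105 dB. The groups overlapped, with differences of -0.05 at 94 dB (95% interval -0.26 to 0.15, adjusted p = 0.736 by edgeR) and 0.12 at 105 dB (-0.09 to 0.32, adjusted p = 0.545). Homer1 makes long scaffold isoforms and a short activity-induced one, Homer1a, which counts per gene do not separate. It has 12 annotated transcripts and, at 36.9%, the lowest GC content of the 8 genes. After the GC and length correction its value at 94 dB turned to 0.30 with an adjusted p of 0.0491, or 0.0707 with the replicate block as well.

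**Figure D4:**
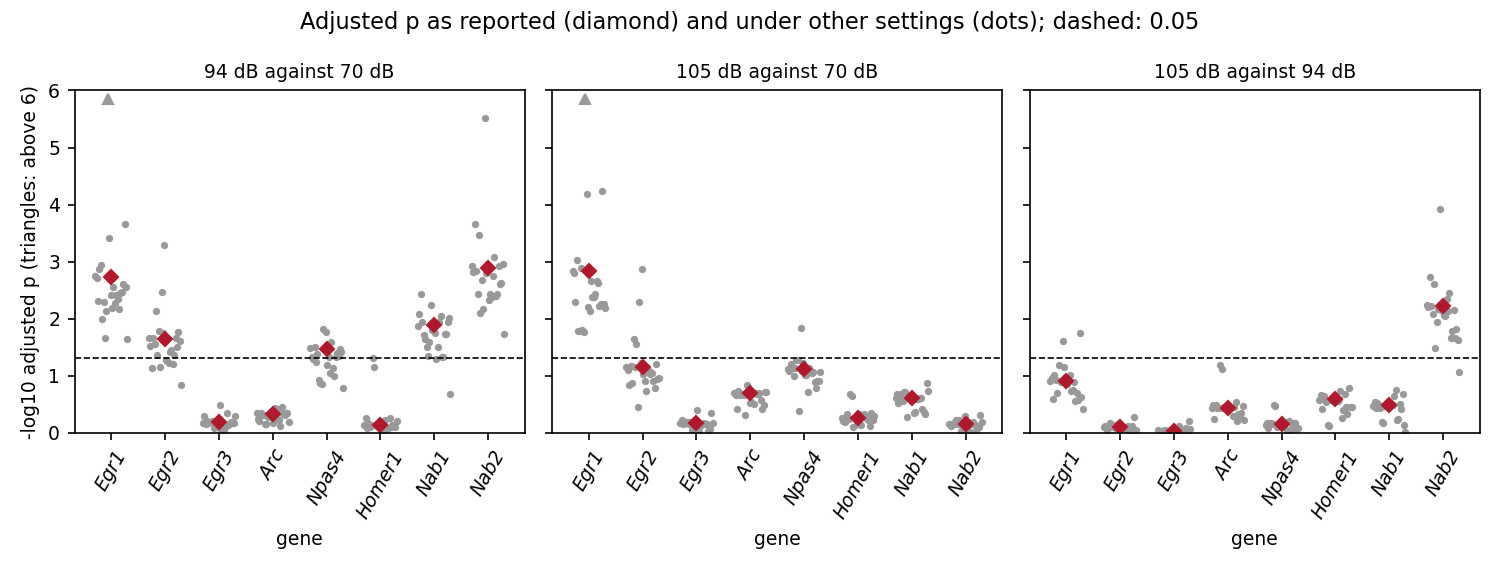
Adjusted p of the 8 genes in the 3 comparisons on a -log10 scale (vertical axis), as reported (diamonds) and under 24 other settings (dots), with the 0.05 threshold dashed and triangles for values above 6. The Egr1 points stay above the line in both comparisons with 70 dB and the Nab2 points at 94 dB, while those of Egr2, Npas4 and Nab1 at 94 dB lie on both sides of it.

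The genes most like Egr1 were taken as those with the smallest root-mean-square difference in log2 CPM over the 12 libraries, each centred on its own 70 dB mean, among 14001 genes. They were Rgs1, a regulator of G-protein signalling (0.26), the salt-inducible kinase Sik1 (0.27), and then Arrdc2, an arrestin-domain protein, Rasd1, a small G protein induced by glucocorticoids, and the MAP kinase phosphatase Dusp1 (0.33 each), where Egr1's own root-mean-square departure from its ambient mean was 1.27. Rgs1 was higher at 105 than at 94 dB, at 1.65 ± 0.176, 3.41 ± 0.512 and 5.89 ± 0.970 CPM. Its difference between the noise levels was 0.79 on the log2 scale (adjusted p = 0.00506 by edgeR). That call was lost without 94 dB replicates 3 and 4 (0.87, adjusted p = 0.0616). Sik1 had 39.7 ± 6.55, 113 ± 9.57 and 115 ± 6.29 CPM, a difference of 0.02 between the noise levels (adjusted p = 0.904).

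Other genes of the same biology were read from 5 lists, which were chosen with earlier results of these data known. The shares and medians below therefore describe the listed genes and are no test of a list. Of 43 other activity-regulated genes tested, 24 rose and 2 fell at 94 dB, and 20 rose and none fell at 105 dB, with medians of 0.49 and 0.46 on the log2 scale, beside 26.1% and 1.62% of all genes called. Fosb, an AP-1 subunit, went from 1.25 ± 0.471 to 4.11 ± 0.567 and 7.77 ± 0.850 CPM (log2 1.70 and 2.62). Gadd45g, a growth arrest gene, went from 15.4 ± 2.14 to 46.0 ± 6.17 and 46.3 ± 6.04 CPM. Arl4d, a small G protein, rose at both levels, from 8.15 ± 0.588 to 22.4 ± 2.74 and 16.1 ± 1.64 CPM, and was lower at 105 than at 94 dB (-0.48, adjusted p = 0.00685 by edgeR). That last call was lost without 94 dB replicates 3 and 4 (-0.37, adjusted p = 0.119) and with the GC and length correction and the replicate block together (0.0510). Without 94 dB replicates 3 and 4, 21 rose and 1 fell at 94 dB. Bdnf, the neurotrophin, named here after its values were seen, had 5.36, 4.13 and 4.50 CPM on average and did not pass at either level.

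Among 31 upstream kinases and transcription factors, 3 rose and 8 fell at 94 dB, where 26.1% of all genes were called, and none passed at 105 dB (11 had an unadjusted p under 0.05, and DESeq2 called 1 higher and 1 lower). Srf, which binds CArG boxes, had 44.1 ± 7.11, 59.9 ± 4.04 and 55.4 ± 2.43 CPM and rose at 94 dB (0.44, adjusted p = 0.00347 by edgeR), and Map2k2, a MAP kinase kinase, rose by 0.35 (adjusted p = 0.00385). Camk2d, a calcium-dependent kinase, fell by 0.45 at 94 dB (adjusted p = 0.00149). After the GC and length correction these 3 had adjusted p of 0.710, 0.204 and 0.0923, and in the list none rose and 3 fell. Elk1, a partner of Srf, was lower at 105 than at 94 dB (-0.76, adjusted p = 0.00960), a call lost without 94 dB replicates 3 and 4 (0.177). Without 94 dB replicates 3 and 4, 2 of the 31 rose and 2 fell at 94 dB.

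Of 12 tested genes of the Egr family and the Nab-linked chromatin complexes, 2 rose and 2 fell at 94 dB, where 26.1% of all genes were called, and none passed at 105 dB (2 at an unadjusted p under 0.05, none by DESeq2). Chd3, a NuRD remodelling subunit, had 96.0 ± 5.91, 113 ± 11.2 and 83.4 ± 1.31 CPM, higher at 94 dB (0.24, adjusted p = 0.0219 by edgeR) and lower at 105 than at 94 dB (-0.44, adjusted p = 0.00166). Mta2, another NuRD subunit, rose by 0.29 at 94 dB (adjusted p = 0.00771), while the histone deacetylase Hdac2 fell by 0.21 (adjusted p = 0.0193). After the GC and length correction Hdac2 was at -0.03 (0.775) and Chd3 at 94 dB had an adjusted p of 0.0754. Hdac2 lost its call in 9 of the 24 settings and Chd3 in 5, among them without 94 dB replicate 3 (0.0673 and 0.0860) and without 70 dB replicate 2 (0.0551 and 0.0658). None of the 12 passed at 94 dB without 94 dB replicates 3 and 4.

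Of 18 tested partners of Homer and Arc at the synapse, 2 rose and 4 fell at 94 dB, again beside 26.1% of all genes, and none passed at 105 dB (4 at an unadjusted p under 0.05, and 1 fell by DESeq2). Shank3, a postsynaptic scaffold bound by Homer proteins, had 22.6 ± 2.55, 32.2 ± 3.71 and 24.6 ± 2.35 CPM and rose at 94 dB (0.51, adjusted p = 0.00212 by edgeR). The AMPA receptor subunits Gria2 and Gria4 fell by 0.41 (adjusted p = 0.00620) and 0.50 (adjusted p = 0.00580), but after the GC and length correction their adjusted p were 0.817 and 0.0515. Gria4 also lost its call without 94 dB replicates 3 and 4 (-0.45, adjusted p = 0.0710). Without 94 dB replicates 3 and 4, 2 rose and 1 fell.

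Of 12 myelin genes linked to Egr2, 1 rose and 3 fell at 94 dB, likewise beside 26.1% of all genes, and none passed at 105 dB (4 at an unadjusted p under 0.05, none by DESeq2). Pmp22, a peripheral myelin protein, had 682 ± 165, 399 ± 51.9 and 503 ± 79.7 CPM and fell by 0.77 on the log2 scale at 94 dB (adjusted p = 0.00701 by edgeR). Without 94 dB replicates 3 and 4 none of the 12 passed at 94 dB, Pmp22 included (-0.76, adjusted p = 0.0990 by edgeR).

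**Figure D5:**
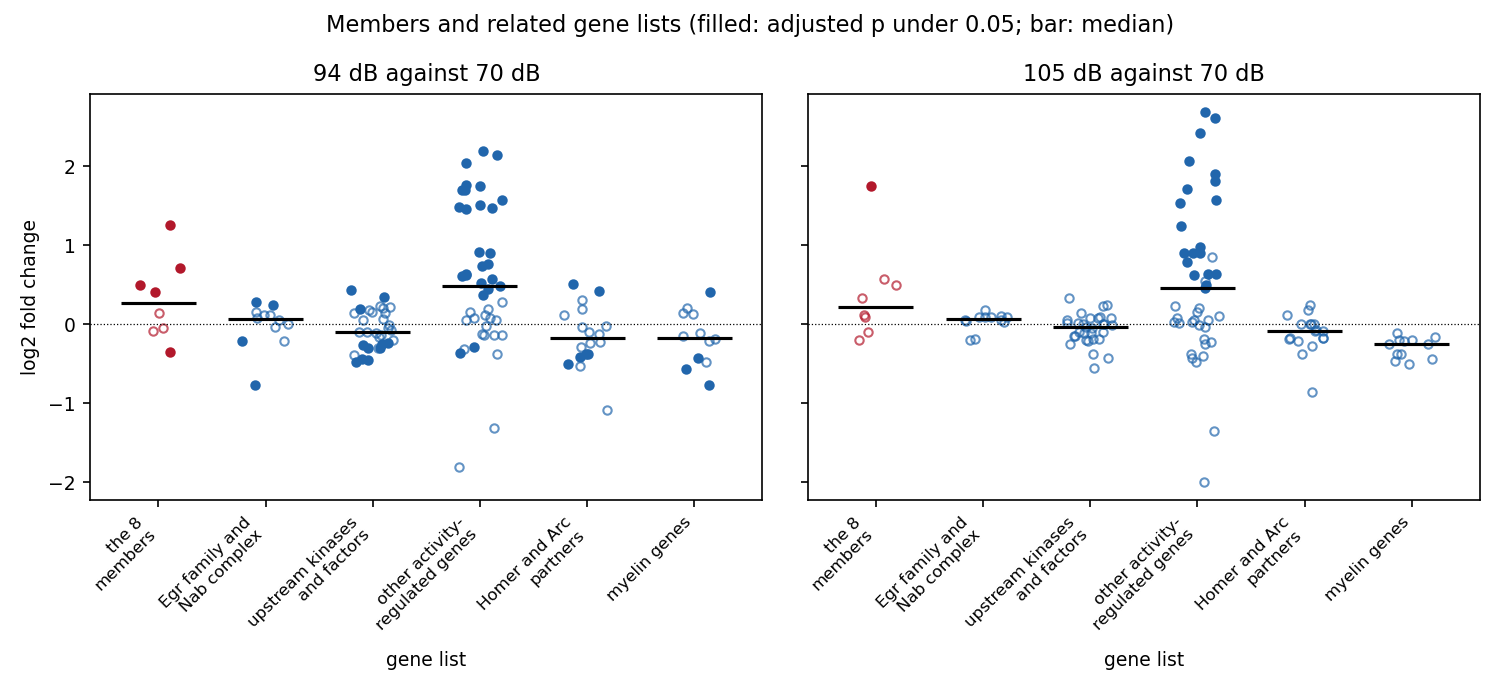
Log2 fold changes (vertical axis) of the 8 genes and of the genes of 5 related lists, 1 panel for each comparison of sound levels, with a point for each gene, filled where the adjusted p is under 0.05, and a bar for the median. The other activity-regulated genes have medians of 0.49 at 94 dB and 0.46 at 105 dB, and the remaining lists have medians of -0.17 to 0.06 at 94 dB and -0.25 to 0.08 at 105 dB.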

How the data were processed

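Cochlear RNA was sequenced in 12 libraries. Per the labels' protocols, RNA was extracted with TRIzol and libraries were made with a TruSeq RNA kit. The deposited values are whole-number read counts per Ensembl gene, not normalised; per the submitters' processing notes the authors used CASAVA, STAR and featureCounts 1.5.0-p3 with mm10. For parameters, annotation, strand and multiply aligned reads, details were not given in the sources used here. Groups and replicate numbers came from sample titles. Symbols, positions and exon lengths came from GENCODE M21 (35449 of 35496 genes matched), and promoters from RefSeq.

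Counts were tested with edgeR 4.0.16 in R 4.3.3: filterByExpr with a minimum count of 10, TMM factors, 1 mean per group over 12 libraries (residual degrees of freedom 9, common BCV 0.133), glmQLFit with robust dispersions and glmQLFTest. Benjamini-Hochberg adjustment ran over 19497 genes, with 0.05 as the threshold. CPM are TMM-scaled, and RPKM divides them by exon length. Standard errors and intervals come from the F statistic. A floor of 3 counts was 0.0703 to 0.0966 CPM and covers counting error only. No libraries were duplicates (r of log2 CPM within groups 0.984 to 0.991).

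The members, lists, motifs and markers were chosen with earlier results of these data known. Named genes were the 8 members, the 3 genes of each list with the smallest p at 94 dB and the 3 at 105 dB, and the 5 genes most like a member that was called with a log2 change of 1 or more. One gene that this rule names is not reported here. Alternatives were other scaling factors, other filters, the 8 libraries compared, a replicate block, a GC and length trend (mgcv 1.9.3) with and without it, 1 surrogate variable (sva 3.50.0), DESeq2 1.42.0, and libraries left out.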

Additional observations from a re-analysis of the deposited data

Results flagged for a closer look

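Arc at 105 dB was the value marked for a closer look: 105 dB replicate 4 had 4.07 CPM, and the nearest of the other 3 libraries had 4.46. That gap was 0.837 of the range of the group, over Dixon's limit for 4 values. Chance marks about 1 in 20 such groups, and 24 groups of 4 libraries were examined (8 genes at 3 sound levels). The library still lay above every ambient library.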

How the results depend on the processing

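Over 24 alternatives, 537 of the member values kept their direction and side of the threshold, 20 kept their direction and lost a call, 7 kept it and gained one, and 12 changed sign, of which Homer1 at 94 dB with the GC and length trend removed also gained a call. Egr1 kept its call in all 24 against 70 dB at 94 dB (log2 1.1 to 1.38) and at 105 dB (1.54 to 1.91), and Nab2 at 94 dB (0.46 to 0.81). At 94 dB, 5 members were called; there were 3 with no low-count filter or 1 surrogate variable, 2 without 94 dB replicates 3 and 4, and 3 to 5 with single libraries left out (3 without 70 dB replicate 2, 3 or 4 or 94 dB replicate 3). At 105 dB against 70 dB, 1 was called; there were 3 by DESeq2 and 1 to 2 with single libraries left out (2 without 70 dB replicate 1). Between the noise levels, 1 was called; there were 2 by DESeq2, 0 without 94 dB replicates 3 and 4, and 1 to 2 with single libraries left out (2 without 105 dB replicate 3). The cause was not tested.

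Signs turned for Arc at 94 dB with the GC and length trend removed (-0.09, also with the block), for Homer1 at 94 dB (0.30 with either) and between the noise levels (-0.07, and -0.06 with the block), and for Egr3 between the noise levels without 94 dB replicates 3 and 4 (0.07). With single libraries left out, Egr3 ran from -0.16 to 0.02 at 94 dB and -0.10 to 0.05 between the noise levels, and Homer1 from -0.10 to 0.03 at 94 dB.

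Libraries sharing a replicate number deviated together weakly at most (correlations -0.149 to 0.182, against -0.187 to 0.147 for different numbers). The highest same-number value in each comparison was that of replicate 2 (0.109, 0.155 and 0.182). In the titles, 105 dB replicates 3 and 4 carry the library names C4 and C5, so names and replicate numbers differ there. The 105 dB replicate 3 had correlations of -0.149 and 0.0524 with replicate 3 at 70 and 94 dB. With replicate 4 it had 0.111 and 0.0378. The replicate block used the replicate numbers, and pairing by library name was not fitted. Whether the numbers pair the libraries was thus not settled. Over all genes, the calls at 105 dB against 70 dB went from 316 to 479 with the replicate block. With the replicate block, 5, 2 and 1 members were called in the 3 comparisons, and 2 at 105 dB with the block and the GC trend together; the added gene was Egr2 (0.59, adjusted p = 0.0231 with the block).

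Over all genes, 5085, 316 and 3372 were called at 94 dB, at 105 dB and between the noise levels, with ranges of 1610 to 5777, 101 to 891 and 217 to 4152. With upper-quartile factors 45% of calls at 94 dB were higher, against 53.4%, and 58.3% at 105 dB, against 68.7%.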

Other observations

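Scg2 and Pcsk1, a secretory granule protein and a prohormone convertase on the activity-regulated list, were singled out after their values were seen. Scg2 had 69.1 CPM in 70 dB replicate 4, against 7.91, 9.06 and 10.8 in the other ambient libraries and 3.85 to 11.3 in the noise libraries. Pcsk1 had 19.1 CPM in the same library, against 4.36, 2.43 and 4.63. The 2 genes were thus high together in 1 ambient library. Their log2 differences at 94 dB of -1.81 and -1.31 (adjusted p = 0.105 and 0.144 by edgeR) were -0.43 and -0.31 without it. In that library Egr1, Npas4 and Nab2 each had their lowest value of the 12 libraries (38.4, 3.67 and 17.0 CPM). Bdnf had its highest value there (8.53 CPM).

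Fos, the AP-1 subunit, had 8.31, 15.6, 15.6 and 10.4 CPM at 70 dB, 45.7 to 58.3 at 94 dB and 70.8, 89.0, 60.3 and 103 CPM at 105 dB. In Fos, as in Egr1 and Rgs1, 105 dB replicate 3 was the lowest library of its group.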
